A study of Mus musculus with 8 samples.

Results

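Cholesterol synthesis, uptake and sterol transport genes were followed in mouse liver after 14 days of glucocorticoid treatment. The set held 34 genes, picked by symbol from the 22565 protein-coding genes of the deposited table: 20 enzymes of cholesterol synthesis and 14 genes of sterol transport, esterification, uptake and efflux. All 34 were found, Sc4mol under its older symbol (now Msmo1), and 32 of them passed the filter on low values described below. RNA came from whole livers of male C57BL/6J mice aged 10 weeks. The 4 treated mice received dexamethasone, a synthetic agonist of the glucocorticoid receptor, at 1.0 mg/kg into the peritoneum each day for 14 days, and the 4 control mice received saline. Each library is named by its group and number, vehicle 1 to 4 and dexamethasone 1 to 4, and the labels give no litter, cage or batch. Each library is taken here as a separate animal, which the labels show only by separate names. The p-values set the group difference against the spread between these libraries.

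Cholesterol is built from acetyl-CoA by enzymes of the cytosol and the endoplasmic reticulum. Cytosolic enzymes first make mevalonate and the isoprenoid farnesyl diphosphate, squalene synthase then commits farnesyl diphosphate to sterols, and a last series of enzymes trims and reduces lanosterol to cholesterol. Transcription of most of these genes is driven by the SREBP2 factor, which leaves the endoplasmic reticulum membrane when its sterol content drops. Hepatocytes also take cholesterol up from lipoproteins, move it between membranes with soluble carrier proteins, store it as esters and send it back out to high-density lipoprotein.

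Levels are given in FPKM, the authors' fragment density relative to transcript length and library size. Each fold change is on the scale log2(FPKM + 1), dexamethasone minus vehicle, with its SE, and understates the change of low genes. Testing with limma covered the 10221 genes that reached 0.5 FPKM in 4 libraries or more, and adjusted p-values are Benjamini-Hochberg values over all of them with a threshold of 0.05. Over all tested genes the deposited log2 fold changes had a median of -0.28. Dividing each library by its median ratio to the average library (median-ratio scaling) brought that value to -0.003. Changes of the members the results turn on are therefore given both as deposited and after scaling, and a single value for any other member is the deposited one. Between 14.5% and 25.3% of inferred fragments in vehicle libraries, and between 28.4% and 51.1% in dexamethasone libraries, lay on the single gene Lars2. Inferred fragments outside Lars2 numbered 1636128 to 2571861 with vehicle and 665937 to 1581775 with dexamethasone, lowest in dexamethasone 4. The part of this difference in the results was not tested beyond the scaled values and left-out libraries given below.

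Of the 19 tested enzymes of cholesterol synthesis, 9 fell with dexamethasone in both sets of values, spread over all 3 stages of the pathway, while the member receptors and pumps that move cholesterol across the plasma membrane did not pass the test. As deposited, 12 of the 32 tested members fell and 0 rose (limma, adjusted p under 0.05), where 7.85% of all tested genes fell and 1.37% rose. After scaling 10 members fell and 0 rose, against 3.06% and 3.35% of all tested genes. All 10 were among the 12, and they were Hmgcs1, Idi1, Fdft1, Sqle, Cyp51, Sc4mol, Nsdhl, Sc5d, Dhcr7 and the carrier gene Stard4. The remaining 2, Pmvk and Npc1, passed as deposited but not after median-ratio scaling. The median log2 fold change of the 32 members was -0.76 as deposited and -0.42 after scaling. Among the 19 tested synthesis genes, 10 fell as deposited and 9 after scaling, with medians of -1.07 and -0.75. Among the 13 tested transport, uptake and efflux genes, 2 fell as deposited and 1 after scaling, with medians of -0.41 and -0.11. In 17 tested members every dexamethasone library lay below every vehicle library as deposited, and in 10 after scaling, against 16.2% and 7.1% of all tested genes. The reverse, every treated library above every control, was seen in 0 members as deposited, against 2.18% of all tested genes. Since RNA came from whole tissue, fewer cells of a type and less RNA per cell cannot be told apart.

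**Figure D1:**
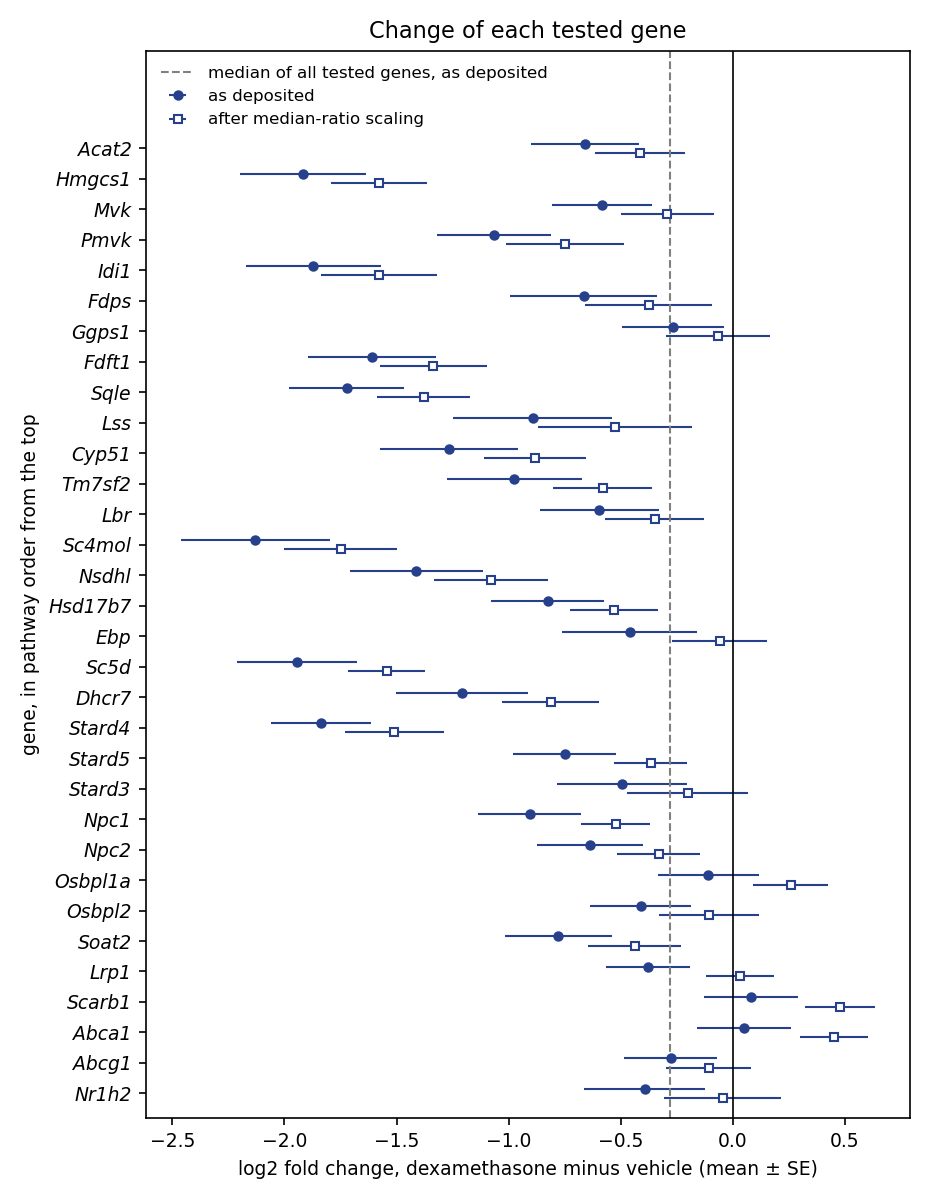
Log2 fold change of each of the 32 tested members (dexamethasone minus vehicle, on log2(FPKM + 1), mean with SE, 4 libraries per group), in pathway order from the top, as deposited (filled circles) and after median-ratio scaling (open squares); the dashed line is the median of all tested genes as deposited, -0.28. Synthesis genes from Hmgcs1 to Dhcr7 lie left of 0, down to -2.13 for Sc4mol, and Scarb1 and Abca1 lie at or right of 0.

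Sterol synthesis genes are known for promoters in which a sterol response element works together with a CCAAT box bound by NF-Y. RefSeq promoter windows (GRCm38.p6, 250 bases before to 50 after a start) were at hand for 25 of the 34 members, 28 windows in all. The letters CCAAT were found on either strand in 21 of these 28 windows (75%), against 37.4% of all windows and 37.3% of the windows of tested genes. The 7 genes among the 10 fallen members that had a window all held CCAAT in at least 1 window, as did 14 of the 18 other members, so the box did not separate them. The letters TCACNCCAC, part of the sterol response element, were found in the windows of Hmgcs1 and Stard3 alone, against 1.24% of all windows. GGGCGG, the core of an Sp1 box, lay in 82.1% of the members' windows and in 62.2% of those of tested genes. The palindromic glucocorticoid receptor consensus (GNACA and TGTNC with any 3 bases between) was found in 0 of the 28 windows and in 0.475% of all windows. Both strands were searched, and a match is a description and not a shown site. The 250 bases before the RefSeq start are shown 5′ to 3′ for the 4 fallen genes of largest decrease with a window and, for comparison, for Abca1, which did not fall. For these 4 genes the RefSeq start differs from the start of the gene positions given below. For Idi1 and Msmo1 it lies inside the gene as placed there, and so do all boxes marked in their sequences. Capitals mark CCAAT, its reverse complement ATTGG and TCACNCCAC.
Hmgcs1, chr13:119690101-119690350, plus strand: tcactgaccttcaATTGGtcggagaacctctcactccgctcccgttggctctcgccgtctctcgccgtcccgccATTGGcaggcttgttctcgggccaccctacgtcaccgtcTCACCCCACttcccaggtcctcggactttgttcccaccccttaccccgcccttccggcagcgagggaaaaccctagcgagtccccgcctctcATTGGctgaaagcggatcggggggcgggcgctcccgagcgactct
Idi1, chr13:8885356-8885605, plus strand: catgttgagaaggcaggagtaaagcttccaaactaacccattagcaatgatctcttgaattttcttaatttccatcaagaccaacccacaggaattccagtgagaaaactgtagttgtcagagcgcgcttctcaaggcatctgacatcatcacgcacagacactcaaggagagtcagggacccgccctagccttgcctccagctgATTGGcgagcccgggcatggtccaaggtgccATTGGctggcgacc
Msmo1, chr8:64733579-64733828, minus strand: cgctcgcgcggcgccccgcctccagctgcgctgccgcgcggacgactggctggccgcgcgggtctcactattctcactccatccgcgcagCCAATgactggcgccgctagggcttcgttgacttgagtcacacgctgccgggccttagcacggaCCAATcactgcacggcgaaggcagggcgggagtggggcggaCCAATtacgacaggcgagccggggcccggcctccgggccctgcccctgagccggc
Sc5d, chr9:42264301-42264550, minus strand: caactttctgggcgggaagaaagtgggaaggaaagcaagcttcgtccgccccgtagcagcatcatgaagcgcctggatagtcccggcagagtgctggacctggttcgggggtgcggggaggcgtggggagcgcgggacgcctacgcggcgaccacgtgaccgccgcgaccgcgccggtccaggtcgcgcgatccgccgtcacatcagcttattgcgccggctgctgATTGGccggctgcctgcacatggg
Abca1, chr4:53159896-53160145, minus strand: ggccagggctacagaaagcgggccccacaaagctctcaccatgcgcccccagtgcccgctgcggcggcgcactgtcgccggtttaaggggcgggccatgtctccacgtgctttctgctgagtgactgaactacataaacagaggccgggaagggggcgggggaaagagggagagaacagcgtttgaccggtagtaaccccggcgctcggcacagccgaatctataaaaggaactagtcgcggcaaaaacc
The Hmgcs1 sequence holds 3 CCAAT boxes with the TCACNCCAC match between them. Msmo1, the current symbol of Sc4mol, holds 3 boxes within 160 bases of its RefSeq start. Idi1 holds 2 boxes within 45 bases of its RefSeq start, Sc5d holds 1, and Abca1 holds none.

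In the first stage, acetyl-CoA to farnesyl diphosphate, the genes Hmgcs1 and Idi1 fell. Hmgcs1 encodes the cytosolic synthase that makes HMG-CoA (ENSMUSG00000093930, chromosome 13, from 119690379 to 119708260 on the plus strand; positions here and below are those of GENCODE M21 on GRCm38). Its level was 14.2, 18.1, 12.0 and 7.01 FPKM in vehicle libraries 1 to 4 and 3.34, 3.01, 2.39 and 1.54 FPKM in dexamethasone libraries 1 to 4. Every treated library lay below every control library, and the log2 fold change was -1.92 ± 0.28 (adjusted p = 0.0014) as deposited and -1.58 ± 0.21 (adjusted p = 0.0013) after scaling. Idi1, the isomerase that interconverts the pair of five-carbon isoprenoid units (ENSMUSG00000058258, chromosome 13, from 8885501 to 8892451 on the plus strand), had 7.74, 12.6, 9.19 and 5.9 FPKM in vehicle libraries 1 to 4 and 2.75, 1.65, 2.08 and 0.521 FPKM in dexamethasone libraries 1 to 4. The groups did not overlap, dexamethasone 4 was lowest, and the change was -1.87 ± 0.30 (adjusted p = 0.0023) as deposited and -1.58 ± 0.26 (adjusted p = 0.0042) after scaling. In the library of lowest Idi1 level the value rested on 7 inferred fragments. Antisense genes share 12.1% of Hmgcs1 exon bases and 9.22% of those of Idi1. The kit was a stranded one, but whether counting used strand is not given in the sources used here, so such shared values are uncertain.

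None of the other enzymes of this stage passed in both sets of values. Pmvk, phosphomevalonate kinase, ranged over 2.98 to 6.00 FPKM in controls and over 1.13 to 2.34 FPKM in treated libraries, and its change was -1.07 ± 0.26 (adjusted p = 0.022) as deposited and -0.75 ± 0.26 (adjusted p = 0.13) after scaling, so the call was lost with scaling. It was also lost as deposited without vehicle 1, vehicle 2, dexamethasone 1 or dexamethasone 3 (adjusted p from 0.0501 to 0.0753). Mvk, mevalonate kinase (-0.58 ± 0.22, adjusted p = 0.11), Fdps, farnesyl diphosphate synthase (-0.67 ± 0.33, adjusted p = 0.21), and Acat2, the cytosolic thiolase that opens the pathway (-0.66 ± 0.24, adjusted p = 0.10), did not pass. All 3 had negative fold changes after scaling too, from -0.29 to -0.41. Mvd, mevalonate diphosphate decarboxylase, was not tested because too few libraries reached 0.5 FPKM. It stood at 0.87, 1.22, 0.949 and 0.426 FPKM in vehicle libraries 1 to 4 and 0, 0.267, 0 and 0.389 FPKM in dexamethasone libraries 1 to 4, which is 4 to 14 inferred fragments with vehicle and at most 3 with dexamethasone. Its 2 libraries listed at 0 were both treated ones. Ggps1, which turns farnesyl diphosphate towards geranylgeranyl diphosphate and away from sterols, had 1.09 ± 0.611 FPKM (SD, n = 4) in controls against 0.695 ± 0.231 FPKM (SD, n = 4) in treated mice, and it missed the threshold (-0.27 ± 0.23, adjusted p = 0.47). The deposited loci of Mvd and Ggps1 span 452 and 11.6 times the annotated gene, and 26.7% of Fdps exon bases belong also to Gm43738 on the same strand, so these levels are uncertain.

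**Figure D2:**
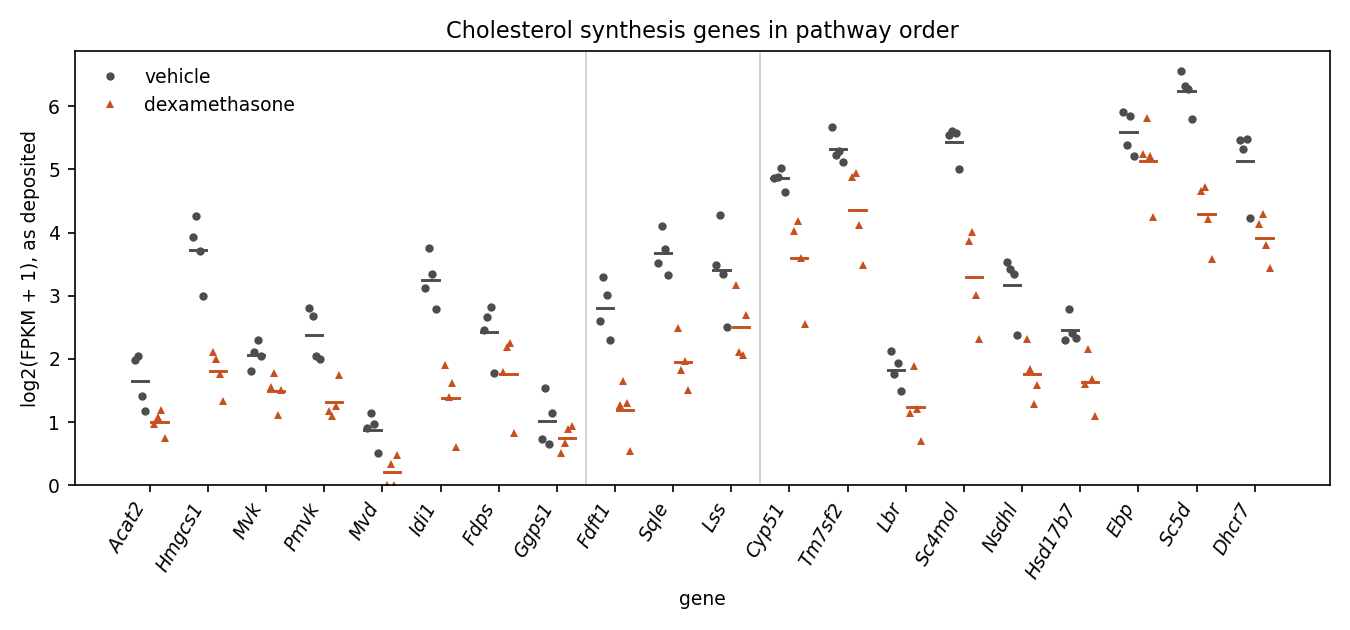
Level of the 20 cholesterol synthesis genes in each library, as log2(FPKM + 1) of the deposited values, in pathway order from left to right; circles are vehicle libraries, triangles dexamethasone libraries, short bars group means, and grey lines separate the 3 stages. Groups stand fully apart for Hmgcs1, Idi1, Fdft1, Sqle, Cyp51, Sc4mol, Nsdhl and Sc5d, among others, and overlap for Lss and Ebp.

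At the branch into sterols and the closing of the sterol rings, Fdft1 and Sqle fell. Fdft1 encodes squalene synthase, the first enzyme committed to sterols (ENSMUSG00000021273, chromosome 14, from 63145150 to 63179578 on the minus strand). It had 5.03, 8.84, 7.08 and 3.92 FPKM in vehicle libraries 1 to 4 and 1.4, 2.15, 1.45 and 0.463 FPKM in dexamethasone libraries 1 to 4. All treated libraries lay below all controls, and the log2 fold change was -1.61 ± 0.29 (adjusted p = 0.0048) as deposited and -1.34 ± 0.24 (adjusted p = 0.0067) after scaling. Of its exon bases 18.3% are also exon of Ctsb on the opposite strand, and its lowest value rested on 5 inferred fragments. The deposited Fdft1 locus spans 1.61 times the annotated gene, so its level is uncertain. Sqle, squalene epoxidase (ENSMUSG00000022351, chromosome 15, from 59315077 to 59331192 on the plus strand), a rate-controlling oxygen-dependent step, had 10.4, 16.1, 12.3 and 9.04 FPKM in vehicle libraries 1 to 4 and 4.6, 2.53, 2.93 and 1.84 FPKM in dexamethasone libraries 1 to 4. Again the groups did not overlap, with a change of -1.72 ± 0.26 (adjusted p = 0.0015) as deposited and -1.38 ± 0.21 (adjusted p = 0.0024) after scaling. Lss, lanosterol synthase, had 10.6 ± 5.75 FPKM (SD, n = 4) in controls against 4.99 ± 2.26 FPKM (SD, n = 4) in treated mice. Its groups overlapped and it did not pass (-0.89 ± 0.35, adjusted p = 0.13). Without vehicle 4, its lowest control library, Lss did pass (-1.19, adjusted p = 0.047), as it did with all 8 libraries in scaled fragment counts with median-ratio scaling (-0.64, adjusted p = 0.039).

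In the stage from lanosterol to cholesterol 5 of 9 members fell, both as deposited and after scaling. Cyp51, the lanosterol 14-alpha-demethylase (ENSMUSG00000001467, chromosome 5, from 4081145 to 4104746 on the minus strand), had 28.1, 28.5, 31.6 and 24.1 FPKM in vehicle libraries 1 to 4 and 15.3, 17.2, 11.1 and 4.87 FPKM in dexamethasone libraries 1 to 4. The groups stood apart and the change was -1.27 ± 0.31 (adjusted p = 0.023) as deposited and -0.88 ± 0.23 (adjusted p = 0.042) after scaling. Its call was lost as deposited without vehicle 1, vehicle 2, vehicle 3 or dexamethasone 3 (adjusted p from 0.052 to 0.067), and after scaling it held in 3 of the 8 sets with a library left out. Sc4mol, the C4-methyl sterol oxidase (ENSMUSG00000031604, chromosome 8, from 64718139 to 64733792 on the minus strand), had 45.5, 47.7, 46.4 and 31.3 FPKM in vehicle libraries 1 to 4 and 13.6, 15.2, 7.05 and 3.98 FPKM in dexamethasone libraries 1 to 4. The decrease, -2.13 ± 0.33 (adjusted p = 0.002) as deposited and -1.75 ± 0.25 (adjusted p = 0.002) after scaling, was the largest of all members in both on this scale. With a pseudocount of 0.1 the decreases of Idi1 (-2.42) and Stard4 (-2.34) were larger than that of Sc4mol (-2.26). Treated libraries 3 and 4 were lower than treated libraries 1 and 2.

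Nsdhl acts with Sc4mol in removing the methyl groups at carbon 4 (ENSMUSG00000031349, chromosome X, from 72918557 to 72958514 on the plus strand). Its level was 10.6, 9.7, 9.14 and 4.2 FPKM in vehicle libraries 1 to 4 and 3.96, 2.59, 1.43 and 2.0 FPKM in dexamethasone libraries 1 to 4. Vehicle 4 stood nearest to the treated libraries without reaching them, and the change was -1.41 ± 0.30 (adjusted p = 0.011) as deposited and -1.08 ± 0.25 (adjusted p = 0.029) after scaling. Left-out libraries did not end this call as deposited, while after scaling it held in 3 of 8 sets. Hsd17b7, a ketoreductase of the same demethylation, had 4.55 ± 0.935 FPKM (SD, n = 4) in controls against 2.21 ± 0.953 FPKM (SD, n = 4) in treated mice, and it missed the threshold (-0.83 ± 0.25, adjusted p = 0.056). It passed without dexamethasone 2 (adjusted p = 0.026), and with all libraries when a term for replicate number was added (adjusted p = 0.036).

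Sc5d, lathosterol oxidase, makes 7-dehydrocholesterol (ENSMUSG00000032018, chromosome 9, from 42251595 to 42264256 on the minus strand), and Dhcr7 reduces it to cholesterol (ENSMUSG00000058454, chromosome 7, from 143823145 to 143848410 on the plus strand). Sc5d had 92.7, 79.1, 76.4 and 54.7 FPKM in vehicle libraries 1 to 4 and 24.3, 25.3, 17.7 and 11 FPKM in dexamethasone libraries 1 to 4. The highest treated library was under the lowest control, and the change was -1.94 ± 0.27 (adjusted p = 0.001) as deposited and -1.54 ± 0.17 (adjusted p = 4.7e-04) after scaling. Dhcr7 had 43.2, 39.2, 43.7 and 17.9 FPKM in vehicle libraries 1 to 4 and 16.6, 18.7, 13.0 and 9.83 FPKM in dexamethasone libraries 1 to 4. Here vehicle 4 lay below dexamethasone 2, so the groups overlapped, and the change was -1.21 ± 0.30 (adjusted p = 0.024) as deposited and -0.81 ± 0.22 (adjusted p = 0.048) after scaling. The Dhcr7 call was lost as deposited without vehicle 1, vehicle 2, vehicle 3, dexamethasone 3 or dexamethasone 4 (adjusted p from 0.053 to 0.078), and after scaling it held in 1 of 8 sets.

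The C14-sterol reductases and the isomerase of this stage did not pass. Tm7sf2 encodes the endoplasmic reticulum C14-sterol reductase (ENSMUSG00000024799, chromosome 19, from 6062821 to 6068373 on the minus strand) and had 49.9, 36.5, 38.3 and 33.9 FPKM in vehicle libraries 1 to 4 and 28.4, 29.8, 16.3 and 10.2 FPKM in dexamethasone libraries 1 to 4. Its groups did not overlap as deposited but did after scaling, and the change was -0.98 ± 0.30 (adjusted p = 0.06) as deposited and -0.58 ± 0.22 (adjusted p = 0.16) after scaling. Without dexamethasone 1 or dexamethasone 2 it passed as deposited (adjusted p = 0.043 and 0.032). With all libraries and a term for replicate number it also passed as deposited (adjusted p = 0.036). Its locus in the deposited table spans 128 times the length of the annotated gene, and 12.1% of its exon bases are shared with Vps51 on the same strand, so its level is uncertain. Lbr, the lamin B receptor of the inner nuclear membrane, whose sterol domain does the same reduction, had 2.61 ± 0.664 FPKM and 1.46 ± 0.884 FPKM (SD, n = 4; -0.60 ± 0.27, adjusted p = 0.17). Ebp, the sterol isomerase that also binds the drug emopamil, had 48.1 ± 11.4 FPKM (SD, n = 4) in controls against 36.5 ± 15.1 FPKM (SD, n = 4) in treated mice. It did not pass and after scaling stood near 0 (-0.46 ± 0.30, adjusted p = 0.34, and -0.06 ± 0.21, adjusted p = 0.92).

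Of the proteins that ferry sterols inside the cell, only Stard4 fell in both sets of values among the 7 members. Stard4 is a soluble START-domain carrier that moves cholesterol between membranes (ENSMUSG00000024378, chromosome 18, from 33199355 to 33213862 on the minus strand). It had 6.75, 9.63, 8.88 and 7.26 FPKM in vehicle libraries 1 to 4 and 2.09, 0.95, 1.44 and 1.8 FPKM in dexamethasone libraries 1 to 4. All treated libraries were below all controls, with a log2 fold change of -1.84 ± 0.22 (adjusted p = 4.8e-04) as deposited and -1.51 ± 0.22 (adjusted p = 0.0023) after scaling. Stard5, a related soluble carrier (ENSMUSG00000046027, chromosome 7, from 83631959 to 83653127 on the plus strand), was more abundant, at 19.4 ± 2.09 FPKM (SD, n = 4) in controls against 11.4 ± 3.17 FPKM (SD, n = 4) in treated mice, and did not pass. Its change was -0.75 ± 0.23 (adjusted p = 0.059) as deposited and -0.37 ± 0.16 (adjusted p = 0.24) after scaling. With a term for replicate number Stard5 passed as deposited (adjusted p = 0.044). Of Stard5 exon bases 22% overlap exons of Il16 on the opposite strand, and its deposited locus spans 5.37 times the gene, so its level is uncertain. Stard3, the START protein of late endosomes, did not pass (-0.49 ± 0.29, adjusted p = 0.29), and vehicle 3 at 6.34 FPKM stood above the other 3 controls (1.62 to 3.08 FPKM).

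Npc1, the late endosomal membrane protein that exports lipoprotein cholesterol, and Npc2, the luminal protein that hands cholesterol to it, were both lower in mean. Npc1 (ENSMUSG00000024413, chromosome 18, from 12189692 to 12236400 on the minus strand) ranged over 16 to 25.4 FPKM in controls and over 6.84 to 12.5 FPKM in treated libraries. The groups did not overlap in either set of values, but of the 2 only the deposited value passed. The change was -0.91 ± 0.23 (adjusted p = 0.028) as deposited and -0.52 ± 0.15 (adjusted p = 0.076) after scaling. Npc1 also passed with quantile normalization (-0.56, adjusted p = 0.048) and in scaled fragment counts with median-ratio scaling (-0.51, adjusted p = 0.023). The deposited call was lost without vehicle 1, vehicle 2, vehicle 3 or dexamethasone 3 (adjusted p from 0.056 to 0.090). Npc2 had 3.87 ± 1.10 FPKM and 2.09 ± 0.419 FPKM (SD, n = 4). It missed the threshold (-0.64 ± 0.24, adjusted p = 0.11) except without vehicle 4 (adjusted p = 0.047). The oxysterol-binding relatives Osbpl1a and Osbpl2, which bind sterols at membrane contacts, did not pass. Osbpl1a was -0.11 ± 0.23 (adjusted p = 0.78) as deposited and 0.26 ± 0.17 (adjusted p = 0.43) after scaling, so its sign changed, and Osbpl2 was -0.41 ± 0.23 (adjusted p = 0.26).

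**Figure D3:**
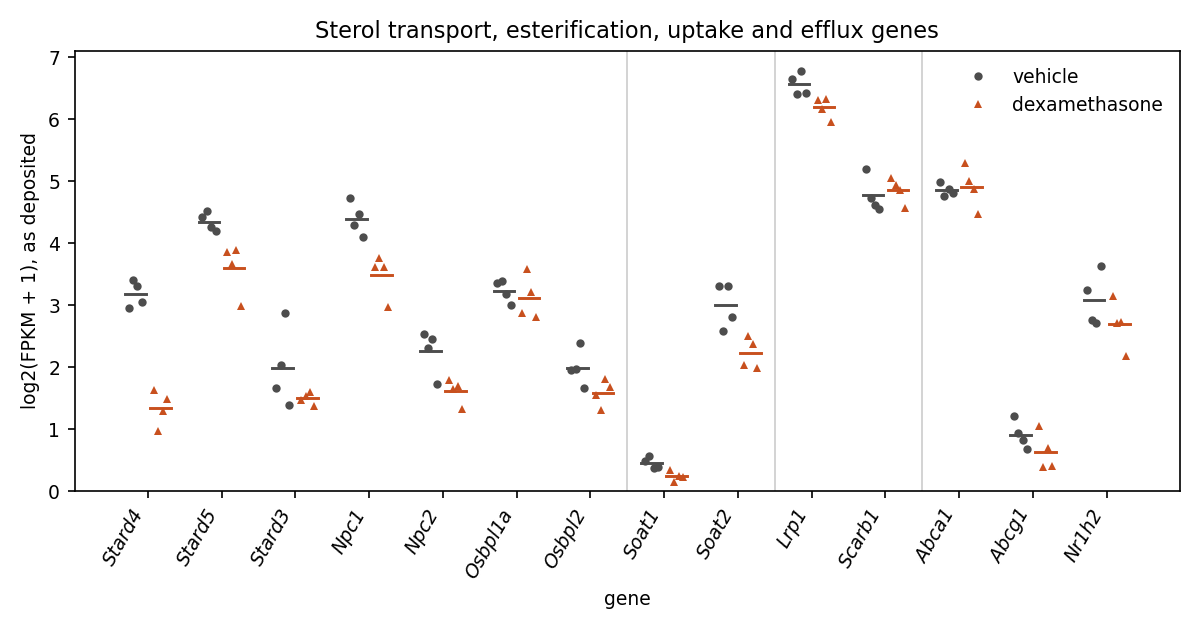
Level of the 14 transport, esterification, uptake and efflux genes in each library, as log2(FPKM + 1) of the deposited values; circles are vehicle libraries, triangles dexamethasone libraries, short bars group means, and grey lines separate the roles. Stard4 shows the widest gap between groups (log2 fold change -1.84), while Scarb1 and Abca1 overlap.

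Of the sterol acyltransferases, which store cholesterol as esters, only Soat2 was tested, and it passed in neither set of values. Soat2, the main liver form, had 8.89, 4.97, 8.92 and 6.03 FPKM in vehicle libraries 1 to 4 and 3.09, 4.69, 4.17 and 2.95 FPKM in dexamethasone libraries 1 to 4. Its groups did not overlap as deposited, and the change was -0.78 ± 0.24 (adjusted p = 0.058) as deposited and -0.44 ± 0.21 (adjusted p = 0.27) after scaling. Without dexamethasone 2 it passed as deposited, at an adjusted p of 0.0495. Soat1, the form of macrophages and many other cells, was below the filter, at 0.299 to 0.473 FPKM with vehicle and 0.102 to 0.267 FPKM with dexamethasone, and was not tested.

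None of the 5 uptake, efflux and sensing genes passed the test as deposited or after scaling. Scarb1 encodes SR-BI, the receptor for high-density lipoprotein (ENSMUSG00000037936, chromosome 5, from 125277087 to 125341094 on the minus strand). It had 35.4, 25.4, 23.6 and 22.5 FPKM in vehicle libraries 1 to 4 and 32.2, 29.6, 27.9 and 22.6 FPKM in dexamethasone libraries 1 to 4. The groups overlapped, and the change was 0.08 ± 0.21 (adjusted p = 0.83) as deposited and 0.48 ± 0.16 (adjusted p = 0.1) after scaling. Lrp1, a large endocytic receptor for remnant lipoproteins, was the most abundant member, at 94.2 ± 11.7 FPKM (SD, n = 4) in controls against 72.2 ± 8.42 FPKM (SD, n = 4) in treated mice. It did not pass, and its sign changed with scaling, with values of -0.38 ± 0.19 (adjusted p = 0.21) as deposited and 0.03 ± 0.15 (adjusted p = 0.94) after scaling. Abca1, the pump that loads cholesterol onto apolipoprotein A-I (ENSMUSG00000015243, chromosome 4, from 53030787 to 53159895 on the minus strand), had 30.5, 26.0, 28.2 and 27.1 FPKM in vehicle libraries 1 to 4 and 38.1, 30.9, 28.1 and 21.2 FPKM in dexamethasone libraries 1 to 4. Its groups overlapped as deposited, whereas after scaling every treated library lay above every control, as in 7.32% of all tested genes. The change was 0.05 ± 0.21 (adjusted p = 0.9) as deposited and 0.45 ± 0.15 (adjusted p = 0.12) after scaling. With the deposited scaled fragment counts in place of FPKM, after median-ratio scaling, Abca1 did pass (0.47, adjusted p = 0.041). That setting called 12 members lower and 1 higher, against 5.26% and 5.32% of all tested genes.

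Abcg1, a partner pump that hands cholesterol to mature lipoprotein particles, was low at 0.599 to 1.32 FPKM with vehicle and 0.315 to 1.06 FPKM with dexamethasone and did not pass (-0.28 ± 0.21, adjusted p = 0.41). Nr1h2 encodes LXR beta, the oxysterol receptor found in most tissues (ENSMUSG00000060601, chromosome 7, from 44549616 to 44553951 on the minus strand). It had 8.46, 5.74, 5.52 and 11.4 FPKM in vehicle libraries 1 to 4 and 7.83, 5.56, 5.64 and 3.51 FPKM in dexamethasone libraries 1 to 4. The groups overlapped, and the change was -0.39 ± 0.27 (adjusted p = 0.37) as deposited and -0.05 ± 0.26 (adjusted p = 0.95) after scaling.

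The libraries of a group were not alike across these genes. After scaling, dexamethasone 4 had the lowest level within its group for 16 of the 32 tested members and for 13 of the 19 synthesis genes. The median synthesis gene stood 0.98 below the vehicle mean in dexamethasone 4, 0.88 below in dexamethasone 3, 0.66 below in dexamethasone 2 and 0.60 below in dexamethasone 1, on the scaled log2 scale. Among controls, vehicle 4 was lowest for 11 of the 19 synthesis genes, with a median 0.20 below the vehicle mean. So the treated library with the most Lars2 fragments and least depth was also the lowest in synthesis genes. Leaving it out, 11 members fell as deposited, where 573 of all tested genes did, and 10 fell after scaling, where 289 did. Hmgcs1, Idi1, Fdft1, Sqle, Sc4mol, Sc5d and Stard4 passed with each of the 8 libraries left out in turn, as deposited and after scaling. Without the filter on low values, Idi1 (adjusted p = 0.053), Fdft1 (0.065) and Sc4mol (0.062) were among the calls lost, and Hmgcs1, Sqle, Sc5d and Stard4 passed.

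**Figure D4:**
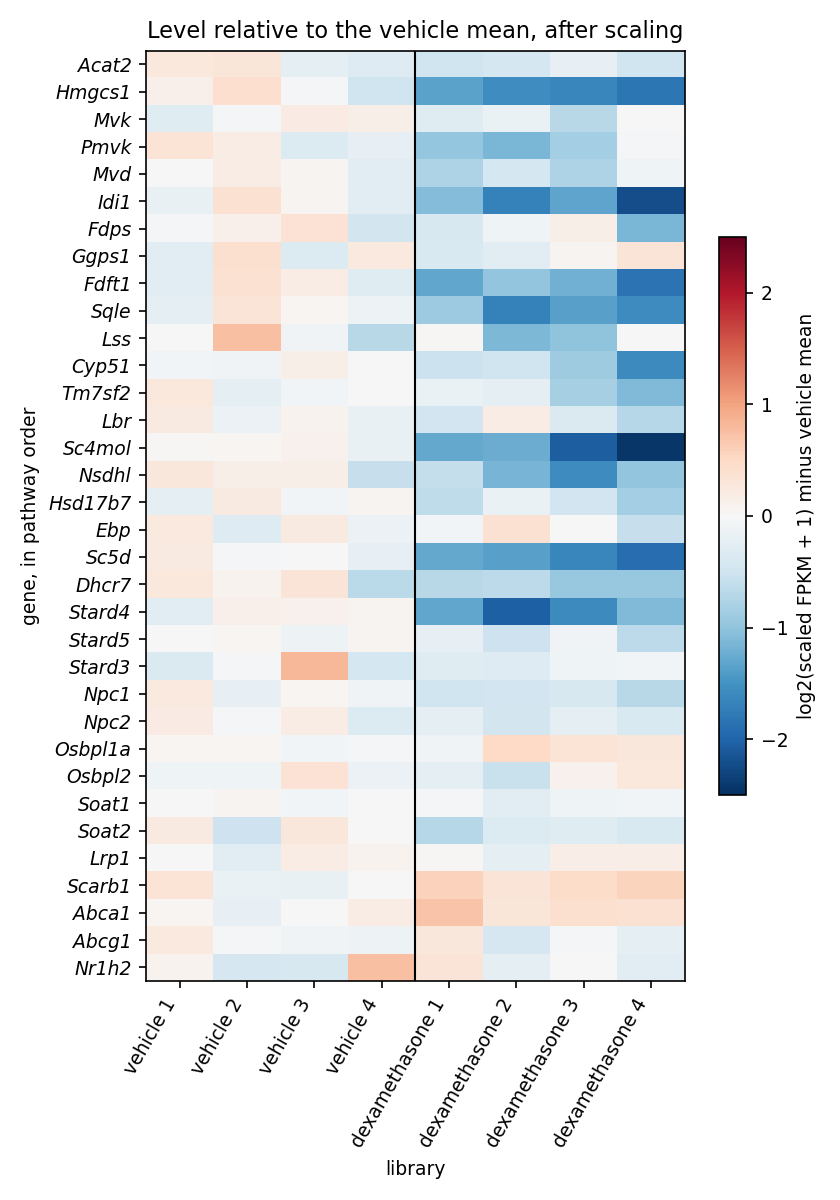
Level of each of the 34 members in each library relative to its mean in the 4 vehicle libraries, as a difference of log2(scaled FPKM + 1) after median-ratio scaling (blue lower, red higher), with members in pathway order and the vertical line between groups. The treated columns are blue for Hmgcs1, Idi1, Fdft1, Sqle, Sc4mol, Sc5d and Stard4, deepest in dexamethasone 4 for Sc4mol and Idi1, and pale red for Scarb1 and Abca1.

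Ratios between functionally related genes were taken within each library, since library scaling cancels in such a ratio. Of 8 pairs compared, 0 passed a two-sided exact permutation test after Benjamini-Hochberg adjustment over the 8. For 2 pairs the groups did not overlap and the exact p was 0.029, the smallest that 4 against 4 libraries can give, which became 0.11 adjusted. Stard4 stood at 0.333, 0.440, 0.492 and 0.419 of the Stard5 level in vehicle libraries 1 to 4. With dexamethasone the same ratio was 0.155, 0.0811, 0.105 and 0.262, a log2 difference of -1.61. The Sc5d to Dhcr7 ratio went from between 1.75 and 3.07 to between 1.12 and 1.46, lower in all treated libraries, with a log2 difference of -0.74.

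The other ratios overlapped between groups. Fdft1 to Ggps1, at the branch point of farnesyl diphosphate, had a log2 difference of -1.77 (exact permutation p = 0.086, adjusted 0.23), with 3.22 to 12.4 in vehicle and 0.508 to 3.69 in dexamethasone libraries. Abca1 to Abcg1 had a log2 difference of 0.81 (exact permutation p = 0.14, adjusted 0.29). The log2 differences of Tm7sf2 to Lbr (-0.03), Soat2 to Soat1 (0.14), Npc1 to Npc2 (-0.11) and Osbpl1a to Osbpl2 (0.45) had exact permutation p-values between 0.31 and 0.97. A p that misses the threshold does not show that these ratios were equal. Soat1 was below the filter, at 7 to 11 inferred fragments with vehicle and 2 to 6 with dexamethasone. The levels of Stard5, Fdft1, Ggps1 and Tm7sf2 are uncertain for the reasons given above, and so are their ratios.

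**Figure D5:**
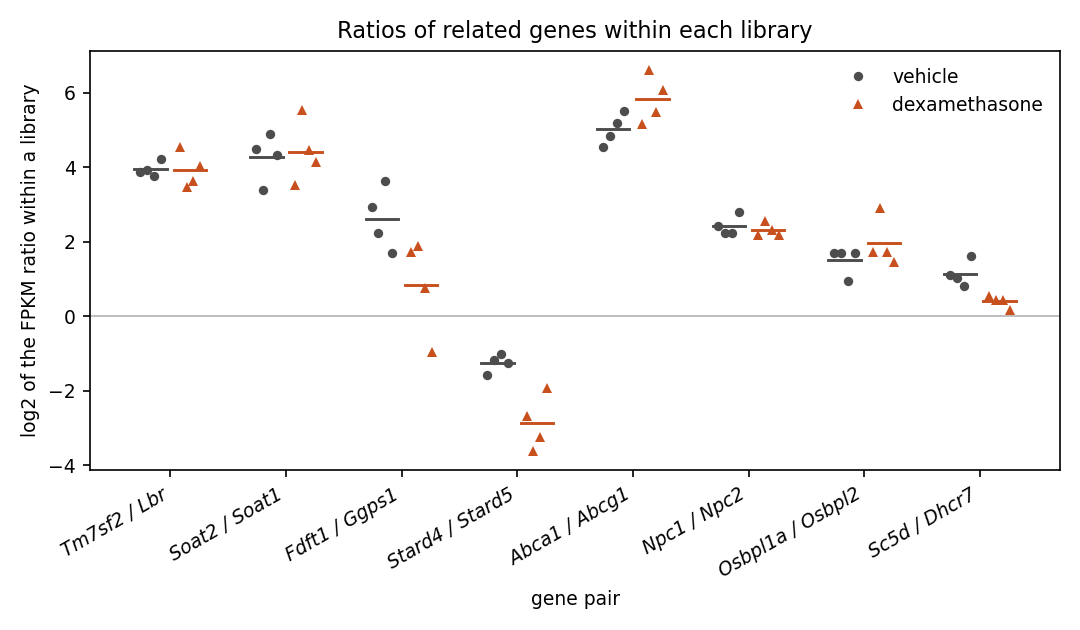
Log2 of the ratio of deposited FPKM within each library for 8 pairs of related genes; circles are vehicle libraries, triangles dexamethasone libraries and short bars group means of 4 libraries. Stard4 to Stard5 and Sc5d to Dhcr7 are the pairs in which the groups do not overlap, with log2 differences of -1.61 and -0.74.

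Some genes next to the pathway fell and others rose. Beside the counts of each list, 7.85% of all tested genes fell and 1.37% rose as deposited. After scaling these shares were 3.06% and 3.35%. Of 7 genes that control SREBP processing, 2 fell and 1 rose in both sets of values. Srebf1 (-2.19 ± 0.24, adjusted p = 2.8e-04, and -1.79 ± 0.21 after scaling, adjusted p = 6.7e-04) and Insig1 (-2.19 ± 0.25, adjusted p = 3.6e-04, and -1.81 ± 0.17, adjusted p = 1.1e-04) fell. Insig2, the second retention protein of SREBP in the endoplasmic reticulum, rose from 23.8, 11.2, 19.2 and 12.2 FPKM in vehicle libraries 1 to 4 to 40.6, 80.6, 66.4 and 57.6 FPKM in dexamethasone libraries 1 to 4 (1.85 ± 0.28, adjusted p = 0.0016, and 2.24 ± 0.26 after scaling, adjusted p = 6.2e-04). The groups did not overlap. Srebf2, which encodes SREBP2 itself, did not pass (-0.18 ± 0.22, adjusted p = 0.63). Of the 6 tested LXR genes, 2 fell as deposited, and after scaling 1 fell and 1 rose. Abcg5, a subunit of the pump that sends sterols into bile, fell in both (-1.81 ± 0.23, adjusted p = 6.0e-04, and -1.43 ± 0.18, adjusted p = 9.5e-04). Its partner subunit Abcg8 fell as deposited only (-0.91 ± 0.21, adjusted p = 0.017, and -0.57 ± 0.20, adjusted p = 0.13). Mylip, an LXR-induced ubiquitin ligase for lipoprotein receptors, rose after scaling only (0.50 ± 0.22, adjusted p = 0.16, and 0.75 ± 0.19, adjusted p = 0.038).

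Among 11 genes that use isoprenoids outside sterols, 2 fell as deposited and 1 after scaling, and that gene was Rabggta, a subunit of the transferase that prenylates Rab proteins (-1.20 ± 0.22, adjusted p = 0.0064, and -0.86 ± 0.18, adjusted p = 0.015). Of the 7 tested other OSBP-family genes 1 fell as deposited and 0 after scaling, and of the 7 tested other START-family genes 2 and 0 did. Shares over all tested genes were 7.85% lower and 1.37% higher as deposited, and 3.06% and 3.35% after scaling. No list was tested against these shares. Of 8 genes that turn sterols into bile acids, 1 fell and 1 rose as deposited, and 0 fell and 2 rose after scaling. Cyp39a1, an oxysterol hydroxylase, rose in both (1.75 ± 0.28, adjusted p = 0.0026, and 2.11 ± 0.23, adjusted p = 4.6e-04). Of 7 genes that handle sterols at lysosome and plasma membrane, 3 fell and 1 rose as deposited, and 0 fell and 1 rose after scaling. The gene that rose was Gramd1b, which encodes a protein that carries plasma membrane cholesterol to the endoplasmic reticulum. It had 0.124, 0.456, 0.604 and 1.06 FPKM in vehicle libraries 1 to 4 and 6.34, 2.67, 3.41 and 5.70 FPKM in dexamethasone libraries 1 to 4 (1.8 ± 0.28, adjusted p = 0.0018, and 2.02 ± 0.31, adjusted p = 0.0030). Every treated library was above every control. Of the 7 tested lipoprotein receptor partners, 2 fell as deposited, and after scaling 1 fell and 1 rose. Sort1, a sorting receptor of lipoprotein secretion, fell in both (-1.39 ± 0.19, adjusted p = 0.0010, and -1.16 ± 0.17, adjusted p = 0.0020).

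Markers of liver cell types were read beside these genes, because macrophages, endothelial cells and stellate cells also express sterol transporters. The tissue label held: summed FPKM of 6 hepatocyte markers was 16740 to 24488 with vehicle and 9576 to 17800 with dexamethasone as deposited, and 13131 to 19750 and 14156 to 18843 after scaling, with 0 of 6 past the test either way. Kupffer cell and macrophage markers summed to 35.9 to 72.9 and 32.7 to 43.3 FPKM, and 1 of the 11 tested, Lyz2, fell both ways. Sinusoidal endothelial markers summed to 64.2 to 82.4 and 52.6 to 87.6 FPKM as deposited. After scaling the sums were 54.6 to 68.9 with vehicle and 72.1 to 87.6 with dexamethasone, so every treated sum lay above every control sum. Of 10 endothelial markers tested 1 fell and 1 rose as deposited, while 3 (Stab1, Lyve1 and Oit3) rose and 0 fell after scaling. Of all tested genes 7.85% fell and 1.37% rose as deposited, and 3.06% and 3.35% after scaling. The markers did not move together. As deposited, Kdr ranged over 5.94 to 7.27 FPKM with vehicle and 3.01 to 3.75 FPKM with dexamethasone. The Kupffer cell, stellate cell and cholangiocyte sums overlapped between groups in both sets of values. Stellate cell markers summed to 105 to 128 and 97.2 to 141 FPKM with 0 of 8 past the test, and cholangiocyte markers to 18.9 to 55.8 and 12.8 to 30.1 FPKM with 0 of 2. Lymphocyte markers summed to 0.302 to 1.25 FPKM with vehicle and neutrophil markers to at most 1.41, and both lists were at 0 in all dexamethasone libraries. None of the markers in these lists passed the filter, so none was tested. Values this near 0 do not show that such cells were absent, and the part of the lower depth with dexamethasone was not tested. The part of any of these cell types in the members' values was not tested.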

How the data were processed

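Liver RNA of 4 vehicle and 4 dexamethasone libraries was sequenced after ribosomal RNA depletion with a stranded kit, per the labels' protocols. The submitters' processing notes name CASAVA 1.8, TopHat2 and the human build hg19, although the deposited identifiers are mouse ones. The counting tool is not given in the sources used here. Per the file headers, 8 columns hold FPKM made by the authors. The 8 columns headed as counts are a deposited signal: 93.2% to 95.4% of their values under 500 steps were whole multiples (tolerance 0.01 step) of a step that differs between libraries. Division by it gave the inferred fragments, 1361295 to 3360083 per library, which limit genes near the filter.

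Tests used limma 3.58.1 in R 4.3.3 with its intensity trend on log2(FPKM + 1) and treatment as the only term, two-sided. The fit was also run on simulated data with independent noise and no library-wide shift or depth difference. That run does not bear on those features of the libraries. Ratios used exact permutation tests, with the Benjamini-Hochberg adjustment made in scipy 1.17.1. Other settings tried were pseudocounts (0.1 and 0.5), filters (none and 1 FPKM), median-ratio scaling, quantile normalization, a replicate term, no trend and each library left out. Added after seeing the data were the scaled fragment counts with median-ratio scaling, and median-ratio scaling with the replicate term or with libraries left out.

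By rule, every library's level is given for members past the threshold both as deposited and after scaling and for Scarb1, Abca1, Nr1h2 and Tm7sf2, and up to 3 genes of smallest p are named per neighbouring list. Library levels of Soat2 and Mvd, and the gene Srebf2, were chosen with their values known. The members and gene lists were chosen with earlier results of these data known.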

Additional observations from a re-analysis of the deposited data

Results flagged for a closer look

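Among 84 groups of 4 values checked (each member's FPKM and each pair's log2 ratio, in each treatment group), 2 held a library far from the other 3, where chance alone flags about 1 group in 20. Sc4mol stood at 31.3 FPKM in vehicle 4, below the other controls at 45.5 to 47.7 FPKM. The log2 ratio of Osbpl1a to Osbpl2 was 0.93 in vehicle 3, below the other 3 controls, which lay close together at ratios of 3.21 to 3.24.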

How the results depend on the processing

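The count of 12 members that fell was between 8 and 15 in the alternatives run, with 2 exceptions. Without a filter, where all 22565 genes of the table were fitted, it was 4, with 246 genes lower and 70 higher. After scaling it was 7 without vehicle 1, 2 or 3 or dexamethasone 3 (range over all left-out libraries 7 to 15, and 0 members higher). Scaling moved the split of all calls from 802 lower and 140 higher (85.1% lower) to 313 and 342 (47.8% lower). Quantile normalization gave 335 and 335. The scaled fragment counts with median-ratio scaling gave 544 higher of all genes and 1 member higher, Abca1. Left-out libraries, as deposited and after scaling, gave 183 to 866 lower and 107 to 315 higher genes. Signs changed for Osbpl1a (0.26 with median-ratio scaling, also with the replicate block, and 0.21 with quantile normalization), Lrp1 (0.031, 0.031 and 0.071 in the same settings), Nr1h2 (0.40 with scaled fragment counts) and Abca1 (-0.077 to 0.20 with libraries left out), all outside the threshold there. The Soat2 to Soat1 ratio turned to -0.57 with a pseudocount of 1 and -0.23 in scaled fragment counts, and ranged from -0.23 to 0.44 with libraries left out. Tm7sf2 to Lbr ranged from -0.24 to 0.12 and Npc1 to Npc2 from -0.19 to 0.014. The cause was not tested.

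Both groups carry replicate numbers 1 to 4, which the labels do not tie to shared litters or days, and same-numbered libraries did not deviate together (correlations from -0.02 to 0.02, 0 of 4 best with their own number). With the replicate block 15 members fell as deposited, where 956 of all genes were lower and 159 higher. Tm7sf2, Hsd17b7 and Stard5 passed there as deposited and not without the block. With the block and median-ratio scaling 8 fell, where 190 genes were lower and 243 higher, and Cyp51 (adjusted p = 0.070) and Dhcr7 (0.057) no longer passed. For ratios the block gave the same differences, and 4 pairs cannot give p under 0.125.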
